A study of Homo sapiens with 12 samples.

Results

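The regions described here are the primed H3K4me2-only sites of SW480 alone. They are enriched regions of the SW480 H3K4me2 list that overlapped, by 1 bp or more, no H3K27ac or H3K4me3 region of SW480 and no H3K4me2, H3K27ac or H3K4me3 region of SW620. The rule selected 4031 of the 31768 SW480 H3K4me2 regions, which is 12.7% of that list, among 262931 regions and peaks in the 10 lists of the series. The sites were selected on the measured calls of H3K4me2, H3K27ac and H3K4me3, so the values of those marks at the sites are given as a description. H3K36me3 and FOXA2 did not enter the rule.

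The series compared SW480 and SW620, human colorectal adenocarcinoma cell lines that the labels give as Dukes' type B (SW480) and Dukes' type C (SW620). Both were untreated and were grown in DMEM with serum. Chromatin immunoprecipitation with sequencing (ChIP-seq) was carried out for H3K4me2, H3K4me3, H3K27ac, H3K36me3 and FOXA2, with 1 library per line and antibody and 1 input library per line. Each line is 1 established culture, so a difference between the lines has no replicate check, the lines could not be tested against each other, and the text holds no p-value. The intervals in brackets are 95% Wilson intervals on counts of regions. They reflect counting error alone, although regions close to each other are not independent. Coordinates are hg19, counted from 1. The lists pair regions with no gene names, so the labelled cell type was not checked against marker genes.

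Dimethylation of lysine 4 of histone H3 (H3K4me2) is found at promoters and enhancers, both active and inactive. H3K27ac is added at elements that are active and H3K4me3 marks promoters, so an H3K4me2 site with neither is often called primed: accessible to factors, but not acetylated. FOXA2 is a forkhead pioneer factor of the foregut endoderm and the liver that can bind such sites. H3K36me3 is laid down over the bodies of transcribed genes. The word primed is used here for the combination of calls alone, since H3K4me1 and accessibility were not analysed here. A mark carried by few of the cultured cells and a weak mark in all of them cannot be told apart in such lists.

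Library depth bears on what the rule selects. The H3K4me2 libraries held 20958795 tags in SW480 and 23671100 in SW620, with 45.8% and 50.7% of tags in regions. The caller required 27 tags per region in SW480 and 29 in SW620. A region below the threshold is not listed, so a missing SW620 call can be a weak SW620 region. The SW620 H3K4me2 library was the deeper one and had more regions, 35114 against 31768. The H3K27ac libraries differed more, with 58.5% of 34224728 tags in regions in SW480 and 27.5% of 47867295 in SW620. How these differences enter the selection was not tested.

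The first question was which marks were called in SW620 at sites that were primed in SW480. In SW480, 9646 H3K4me2 regions (30.4%) overlapped no H3K27ac region, and 7458 (23.5%) overlapped neither H3K27ac nor H3K4me3. Of these 7458 primed sites, 4031 (54.1%, 52.9 to 55.2) were without any of the 3 marks in SW620. Another 2494 (33.4%, 32.4 to 34.5) had H3K4me2 in SW620 but neither of the active marks, and are called primed in both lines below. The remaining 933 (12.5%, 11.8 to 13.3) overlapped H3K27ac or H3K4me3 in SW620. Over the whole SW480 list, 23.2% of regions had no SW620 H3K4me2. That share is part of the rule and nothing is read from it.

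The same rule applied in the other direction gave 6230 SW620-alone sites, 52.5% (51.6 to 53.4) of 11874 primed SW620 regions. The share of primed sites found in one line alone was thus close in both, 54.1% in SW480 and 52.5% in SW620. The shares active in the other line differed more: 12.5% of the SW480 primed sites were active in SW620, while 26.4% (25.6 to 27.2) of the SW620 primed sites were active in SW480. The libraries of the active marks differed too. The share of tags in regions was 58.5% in SW480 and 27.5% in SW620 for H3K27ac, and 73.0% and 52.0% for H3K4me3. The part of the libraries in the difference was not tested.

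**Figure D1:**
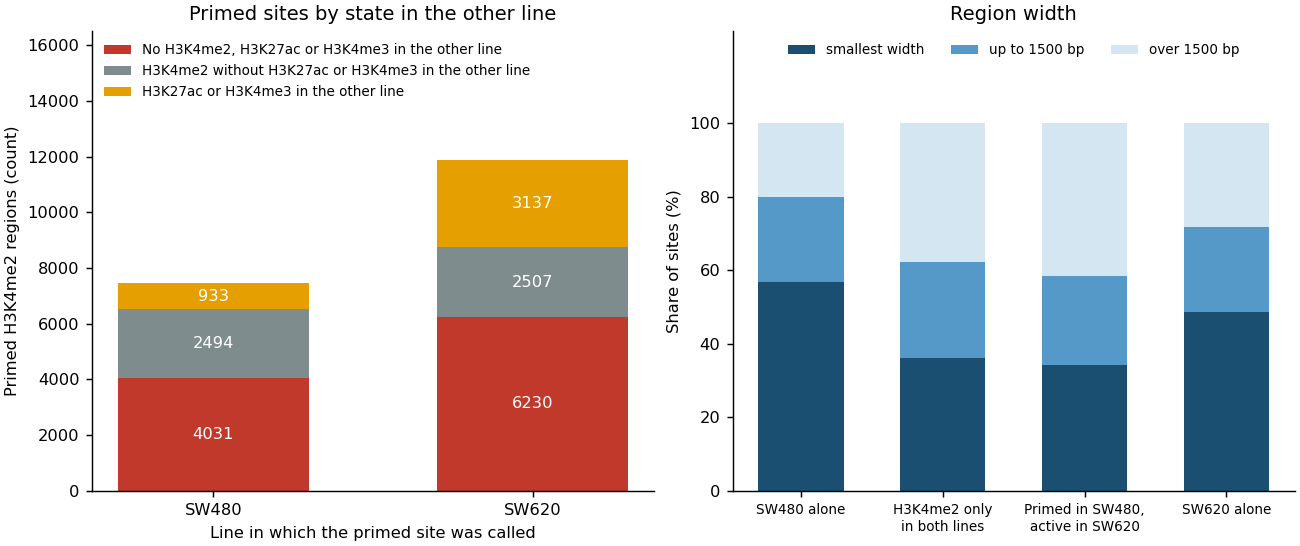
Left, counts of primed H3K4me2 regions called in SW480 and in SW620, divided by their state in the other line. Right, share of sites (%) in 3 width classes for the SW480-alone sites, the sites with H3K4me2 only in both lines, the sites primed in SW480 and active in SW620, and the SW620-alone sites. The SW480-alone sites number 4031, and 56.7% of them have the smallest width the caller gives.

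The SW480-alone sites were narrow. Their median width was 1001 bp, which is the smallest region the caller returned for a histone mark, and 2285 of them (56.7%, 55.2 to 58.2) had exactly this width. The upper quartile was 1277 bp, 110 sites exceeded 2 kb, and the widest was 3193 bp. Together they covered 4.86 Mb. Sites primed in both lines had a median of 1255 bp, with 36.01% (34.2 to 37.9) at the smallest width. Sites primed in SW480 and active in SW620 had 1261 bp and 34.2%, and SW620-alone sites 1251 bp and 48.6% (47.4 to 49.9). SW480 H3K4me2 regions with H3K27ac or H3K4me3 of their own line had a median of 2589 bp, and 5.30% of them were at the smallest width.

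The SW480-alone sites also stood late in the deposited SW480 list. Their median place was 87.3% of the way down the list, 3210 of them (79.6%) were in its last 25%, and 34 were in its first 50%, the earliest at place 4624. Sites primed in both lines had a median place of 77.4%. List place and width went together over the SW480 list (Spearman's rho -0.917 over 31768 regions, a description without a test). The sources used here do not state whether list order follows signal strength. Most of the sites thus come from the narrow and late end of the list.

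FOXA2 was called at few of the sites. A SW620 FOXA2 peak overlapped 155 of the 4031 SW480-alone sites (3.85%, 3.29 to 4.48), against 11.3% of all SW480 H3K4me2 regions. Sites primed in both lines held a SW620 peak in 351 of 2494 cases (14.1%, 12.8 to 15.5). Sites primed in SW480 and active in SW620 did so in 226 of 933 cases (24.2%, 21.6 to 27.1), and SW620-alone sites in 1328 of 6230 (21.3%, 20.3 to 22.4). The interval of the SW480-alone sites did not overlap any of these 3. On 23 of 23 chromosomes their share was below that of the sites primed in both lines and below that of the SW620-alone sites. By definition, the 3 other classes carried H3K4me2, H3K27ac or H3K4me3 in SW620 and the SW480-alone sites carried none. The classes thus differ in SW620 marks to begin with. Few SW620 FOXA2 peaks at SW480-only H3K4me2 were also known when the sites were chosen, so the difference is a description.

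A similarly low share was found at active sites of SW480. SW480 H3K4me2 regions that had H3K27ac or H3K4me3 in SW480 but no H3K4me2 in SW620 held a SW620 FOXA2 peak in 137 of 3282 cases (4.17%, 3.54 to 4.91), and that interval overlapped the one of the SW480-alone sites. Active SW480 H3K4me2 regions as a whole, with and without H3K4me2 in SW620, did so in 11.7% of 24310 cases. The SW480-alone sites and the active SW480 sites without SW620 H3K4me2 thus stood at 3.85% and 4.17%, both below the 11.3% of the whole list. The filters differ, since the active sites could carry H3K27ac or H3K4me3 in SW620 and the SW480-alone sites could not.

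The difference from the other primed classes was also present among sites of like width. At the smallest width of 1001 bp, 3.28% (2.63 to 4.10) of the SW480-alone sites held a SW620 peak, against 12.7% (10.7 to 15.0) of those primed in both lines. Active SW480 sites without SW620 H3K4me2 stood at 3.75% (2.53 to 5.52), sites primed in SW480 and active in SW620 at 21.3%, and SW620-alone sites at 15.6%. Over 1500 bp, the SW480-alone sites reached 5.44% (4.08 to 7.22) and those primed in both lines 16.2% (13.9 to 18.6). Place in the list gave a like picture, with 4.51% for SW480-alone sites in the first 75% of the list and 3.68% in the last 25%. For sites primed in both lines these shares were 14.5% and 13.8%.

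**Figure D2:**
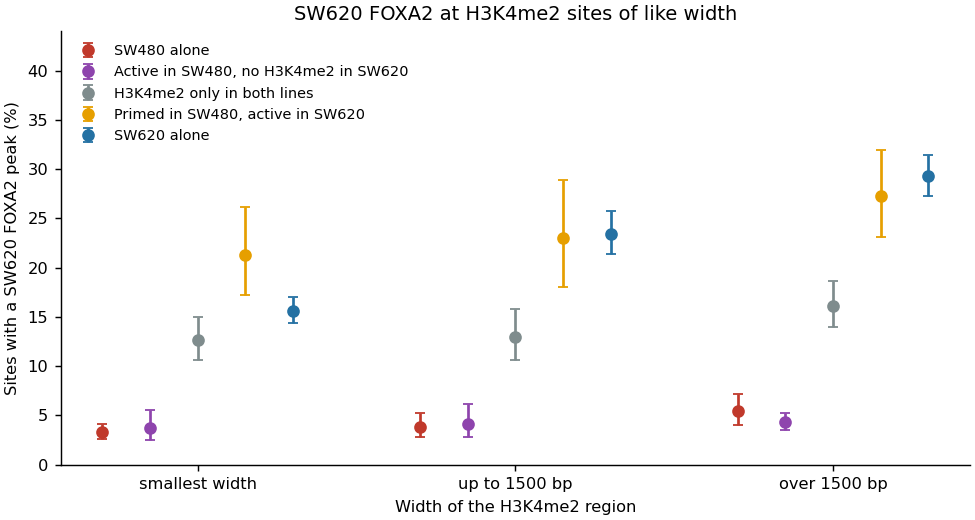
Share of sites (%) that overlap a SW620 FOXA2 peak, for 3 classes of H3K4me2 region width and 5 classes of site. Points are shares and bars 95% Wilson intervals; the SW480-alone sites lie between 3.28% and 5.44%, close to active SW480 sites without SW620 H3K4me2 and below the 3 other classes at each width; the smallest width is 1001 bp.

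The few SW620 peaks were more frequent at the centre of the SW480-alone sites. In the 1-kb bin at the site centre there were 32.5 SW620 FOXA2 peak centres per 1000 sites. The mean was 5.78 per bin at 20 kb or more from the centre, a ratio of 5.62. The ratio was 16.1 at sites primed in both lines, 19.3 at those active in SW620 and 22.2 at SW620-alone sites. The peaks at SW480-alone sites stood later in the SW620 FOXA2 list, at a median place of 54.3%, than those at sites primed in both lines (40.4%) or SW620-alone sites (40.4%). SW480-alone sites with SW480 H3K27ac within 10 kb held a SW620 peak in 4.48% (3.37 to 5.95) of 1004 cases and those without it in 3.63% (3.02 to 4.36) of 3027, a difference within the counting error.

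SW480 FOXA2 peaks were rarer still. They overlapped 32 SW480-alone sites (0.794%, 0.563 to 1.12), against 0.9% of all SW480 H3K4me2 regions, so the sites did not stand apart from their own list. Sites primed in both lines had 1.28% (0.910 to 1.81), and SW620-alone sites 0.594% (0.431 to 0.818). The SW480 peaks were likewise more frequent at the centre of the SW480-alone sites, with 6.95 per 1000 sites in the central bin from 28 peaks. The mean was 2.21 per bin at 20 kb or more from the centre, a ratio of 3.15. The SW480 FOXA2 library had 0.590% of its tags in peaks and the SW620 library 2.25%, at peak widths of 127 and 319 bp, so the shares of the lines are not comparable with each other.

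**Figure D3:**
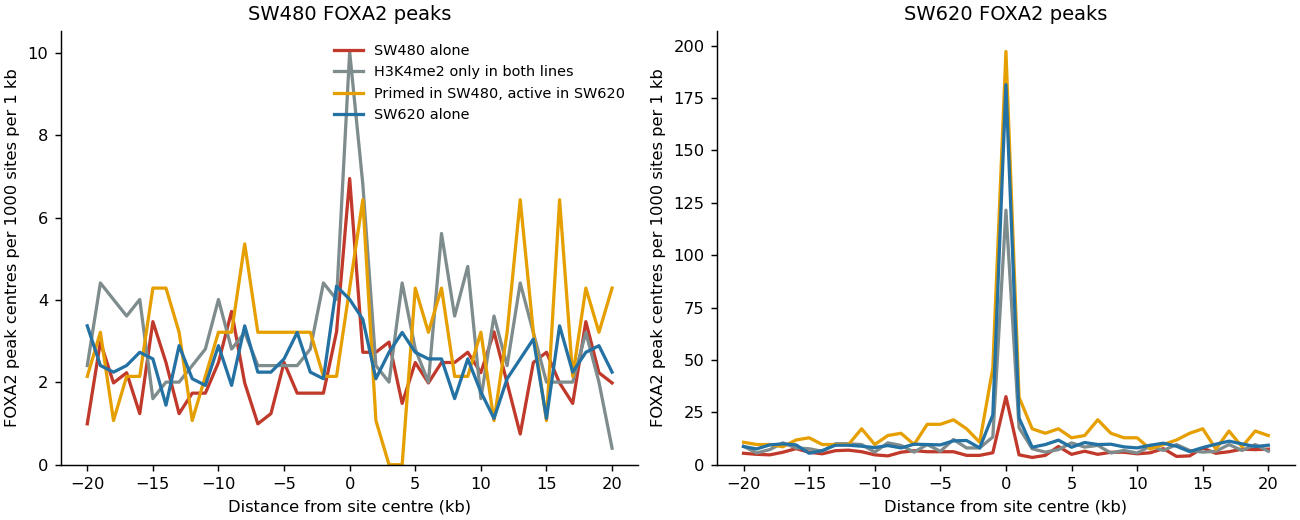
FOXA2 peak centres per 1000 sites in bins of 1 kb, by distance from the site centre (kb), for SW480 peaks (left) and SW620 peaks (right), in 4 classes of primed site. The vertical scales differ; at the centre the SW480-alone sites reach 6.95 for SW480 peaks and 32.5 for SW620 peaks, where SW620-alone sites reach 181.

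Taking both lists, 3851 of the SW480-alone sites (95.5%) held no FOXA2 peak, 148 held one in SW620 only, 25 in SW480 only and 7 in both. At all 7 the peaks of the lines overlapped each other, with centres 11 to 58 bp apart. The widest of the 7 was on chromosome 2 from 127983403 to 127985449, 2047 bp wide, with the nearest SW480 H3K27ac 4.24 kb and the nearest SW620 H3K27ac 5.35 kb away. Others lay on chromosome 11 from 14333877 to 14335417 and on chromosome 1 from 229356605 to 229358119. The chromosome 1 site had SW480 H3K27ac at 2.17 kb, while the nearest SW620 H3K27ac was at 47.7 kb. These positions were bound, by call, in both lines and carried H3K4me2 in SW480 only.

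The widest SW480-alone site with a SW480 FOXA2 peak was on chromosome 14 from 72631572 to 72633712 (2141 bp), 725 kb from the nearest SW620 H3K4me2 region. Next came chromosome 12 from 131364233 to 131366367 (2135 bp) and chromosome 20 from 2329611 to 2331681 (2071 bp). Chromosome 11 from 56980323 to 56982387 (2065 bp) followed, and then the chromosome 2 site with peaks of both lines. The chromosome 12 site lay 6.26 kb from SW480 H3K27ac, and the chromosome 20 and 11 sites 118 and 95.4 kb from it. The sites with FOXA2 thus occurred both beside and far from acetylated chromatin.

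Most SW480-alone sites lay outside chromatin with the transcribed-body mark. H3K36me3 overlapped 152 of them in SW480 (3.77%, 3.23 to 4.40) and 133 in SW620 (3.30%, 2.79 to 3.90), against 13.8% and 11.2% of all SW480 H3K4me2 regions. The gap was smaller among narrow regions. The whole list includes the SW480-alone sites, which were 2285 of its 4790 regions at 1001 bp. Part of the smaller gap there follows from this inclusion. At 1001 bp, SW480 H3K36me3 overlapped 4.07% (3.33 to 4.96) of the SW480-alone sites and 5.43% (4.82 to 6.11) of all SW480 H3K4me2 regions, and SW620 H3K36me3 3.06% (2.43 to 3.85) and 4.47% (3.92 to 5.09). Over 1001 and up to 1500 bp, the SW620 shares were 3.52% (2.52 to 4.91) and 4.08% (3.46 to 4.80), with intervals that overlapped. Over 1500 bp, where the other regions reach far greater widths, SW480 H3K36me3 overlapped 3.83% (2.71 to 5.39) of the SW480-alone sites and 16.8% of all. H3K36me3 was present in both lines at 77 sites, in SW480 only at 75, in SW620 only at 56 and in neither at 3823 (94.8%). The intervals of the lines overlapped, although the rule required H3K4me2 in SW480 and its absence in SW620. Of the overlapping sites, those in SW480 had a median of 76.2% of their length covered and those in SW620 76.5%.

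Here the SW480-alone sites differed from active ones that also lacked SW620 H3K4me2. Unlike the SW480-alone sites, these active regions could carry H3K27ac or H3K4me3 in SW620. Among those 3282 regions, H3K36me3 overlapped 11.4% (10.3 to 12.5) in SW480 and 8.32% (7.42 to 9.31) in SW620. At the width of 1001 bp the SW480 share was 4.07% of the SW480-alone and 11.6% (9.31 to 14.3) of the active sites. At that width it was 9.32% (7.85 to 11.0) of all SW480 H3K4me2 regions with H3K27ac or H3K4me3 of their own line. It was 5.96% (3.85 to 9.12) of sites primed in SW480 and active in SW620, and 3.12% (2.17 to 4.47) of sites primed in both lines. Sites primed in both lines had 2.77% (2.19 to 3.49) in SW480 and 2.37% (1.84 to 3.04) in SW620, with intervals that overlapped those of the SW480-alone sites. SW620-alone sites had 5.47% (4.94 to 6.07) in SW480 and 3.68% (3.24 to 4.17) in SW620.

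Around the SW480-alone sites, H3K36me3 was sparser near the site than farther off. SW480 H3K36me3 covered 2.43% of the site centres and 4.22%, 7.21% and 8.58% of the positions 10, 50 and 100 kb away. For SW620 H3K36me3 the values were 2.21%, 3.87%, 6.29% and 7.67%. Sites primed in both lines had a like course, with 1.72% at the centre and 10.3% at 100 kb in SW480. The decline toward the centre was thus seen in both classes.

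By median distance, H3K27ac, H3K4me3 and other H3K4me2 regions lay nearer to the sites in SW480 than in SW620. The nearest H3K27ac region was a median of 33.3 kb away in SW480 and 57.7 kb in SW620. It lay within 10 kb for 24.9% (23.6 to 26.3) of the sites in SW480 and 17.2% (16.1 to 18.4) in SW620. For H3K4me3 the medians were 45.1 kb in SW480 and 60.1 kb in SW620, and for another H3K4me2 region 19.3 kb in SW480 and 24.2 kb in SW620. These 3 marks were part of the rule, so the distances are a description.

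H3K27ac was nearer in SW480 at 71.6% of the SW480-alone sites and nearer in SW620 at 28.3%. Other classes leaned the same way. H3K27ac was nearer in SW480 at 63.7% of the sites primed in both lines and at 57.6% of the SW620-alone sites, and the H3K27ac lists held 23493 regions in SW480 and 22236 in SW620. At 10 kb from the centre, H3K27ac covered 4.39% of positions in SW480 and 2.82% in SW620. H3K4me2 coverage was closer between the lines, with 5.46% in SW480 and 5.16% in SW620 at 10 kb. At 20 kb it was 4.54% and 4.53%, and at 100 kb it was higher in SW620, 4.39% and 4.86%. Compared with the sites primed in both lines, whose median distance to SW480 H3K27ac was 22.1 kb, the SW480-alone sites lay farther from acetylated chromatin.

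A part of the sites was isolated. No other H3K4me2, H3K27ac or H3K4me3 region of SW480 lay within 50 kb of 1007 SW480-alone sites (24.98%, 23.7 to 26.3), against 16.8% (15.3 to 18.3) of those primed in both lines. No SW620 region of these marks lay within 50 kb of 1333 SW480-alone sites (33.1%, 31.6 to 34.5), with no other class counted for SW620. The share over the whole SW480 H3K4me2 list was not computed. These marks were part of the rule, so the shares are a description.

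SW480-alone sites lay beside each other more often than their share of the list, and the other primed classes of SW480 did so too. The nearest other SW480 H3K4me2 region was another SW480-alone site in 24.4% (23.1 to 25.8) of cases, while such sites make up 12.7% of the list and were the nearest neighbour of 14.1% (12.8 to 15.5) of the sites primed in both lines. An active region without SW620 H3K4me2 was nearest in 12.0% (11.1 to 13.1) of cases, close to the 10.3% that such regions form of the list, and in 7.14% (6.19 to 8.22) for sites primed in both lines. An active region with SW620 H3K4me2 was nearest in 52.2%, where such regions form 66.2% of the list. The nearest region was thus most often one with H3K4me2 in SW620. Sites primed in both lines had a site of their own class nearest in 12.0% (10.8 to 13.3) of cases and form 7.85% of the list. For sites primed in SW480 and active in SW620 the values were 11.0% (9.19 to 13.2) and 2.94%. Such adjacency was therefore not particular to the SW480-alone sites. These classes rest on the SW620 H3K4me2 calls that the rule used, so the shares are a description.

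Chains of sites were nonetheless short. When sites up to 25 kb apart were joined, 42 chains of 3 or more held 132 sites (3.28%, 2.77 to 3.87), 291 pairs were formed and 3317 sites (82.3%) stood singly. Among sites primed in both lines 1.89% were in such chains, and among SW620-alone sites, which are more numerous, 6.40% (5.82 to 7.04). The longest chain had 5 sites and lay on chromosome X from 58225322 to 58258151, with no other region of any list of either line inside it. Within it was one of the 10 widest sites, from 58239047 to 58241865 (2819 bp), with the nearest H3K27ac at 301 kb in SW480 and 302 kb in SW620.

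Chains of 4 sites lay on chromosome 1 from 175439714 to 175491694, chromosome 19 from 3219533 to 3271087, chromosome 5 from 17401816 to 17437655 and chromosome 8 from 68657772 to 68674035. The chromosome 1 and 5 chains each enclosed 1 SW480 H3K27ac region and no SW620 H3K27ac region. The chromosome 1 chain also enclosed 1 SW620 FOXA2 peak. The chromosome 19 chain enclosed 1 SW480 FOXA2 peak, 1 SW480 H3K4me3 region and 1 SW620 H3K4me2 region. The chromosome 8 chain, 16.3 kb long, held its 4 sites and nothing else in either line.

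At a larger scale, 1681 windows of 1 Mb held a SW480-alone site, 669 of them exactly 1, and 7 held 10 or more. The window with the most was on chromosome 20 between 55 and 56 Mb, with 13 sites. It was otherwise marked in both lines, with 16 H3K27ac regions in SW480 and 11 in SW620, and 32 and 18 H3K4me2 regions. Windows with 11 sites each began at 73 Mb on chromosome 16, at 11 Mb on chromosome 17 and at 7 Mb on chromosome 18. In them SW480 H3K4me2 regions numbered 23, 18 and 12, against 10, 8 and 4 in SW620.

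The window on chromosome 14 between 72 and 73 Mb was of another kind. It held 12 SW480-alone sites among 13 SW480 H3K4me2 regions, and no H3K4me2, H3K27ac or H3K4me3 region of SW620. SW480 had 1 H3K27ac and 1 H3K4me3 region there. H3K36me3 was present in both lines, with 8 regions in SW480 and 5 in SW620, all in the first part of the window. The stretch of SW620 without the 3 marks ran from 71789489 to 73358816, 1569 kb, and contained 14 SW480 H3K4me2 regions, 13 of them SW480-alone sites. The sites in the window were 1001 to 2141 bp wide, 1 of them held a SW480 FOXA2 peak and another a SW620 FOXA2 peak. Whether the copy number of this stretch differs between the lines was not tested, since the input signal was not analysed here.

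**Figure D4:**
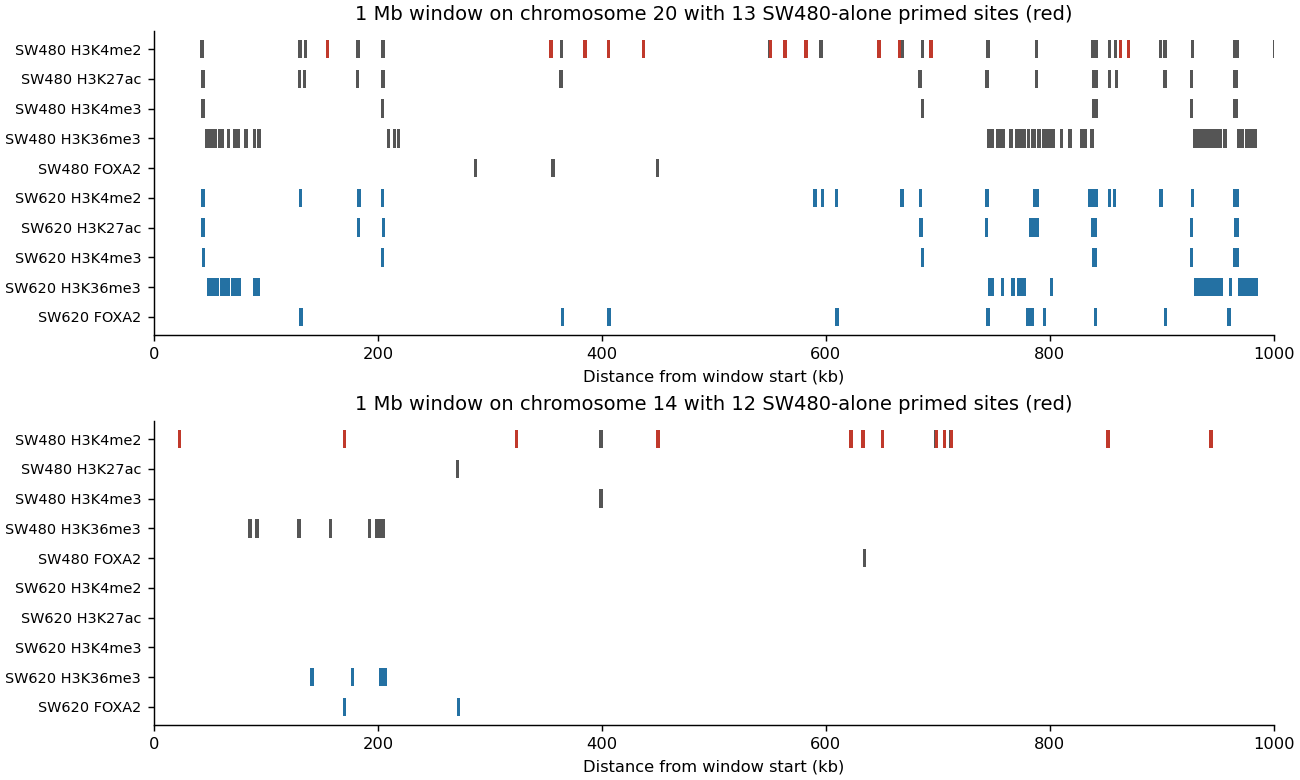
Regions and peaks of both lines in the 1 Mb windows with the most SW480-alone sites, on chromosome 20 (top) and chromosome 14 (bottom), by distance from the window start (kb). SW480 tracks stand above SW620 tracks and SW480-alone sites are red; narrow regions are drawn at least 3 kb wide. On chromosome 14 the SW620 tracks of H3K4me2, H3K27ac and H3K4me3 are empty.

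The sites were spread over all chromosomes with primed sites. The share of primed SW480 sites that were SW480 alone had a median of 54.9% over 23 chromosomes and ran between 42.5% (35.9 to 49.4) on chromosome 22 and 62.6% (56.8 to 68.2) on chromosome 20. For 7 of the 23, the interval did not include the overall 54.1%. Above it were chromosomes 20, X (62.2%, 55.6 to 68.4), 8 (60.7%, 55.4 to 65.8) and 2 (58.3%, 54.3 to 62.2). Below it were chromosomes 22, 15 (43.1%, 36.8 to 49.6) and 19 (46.5%, 41.4 to 51.7). The intervals of chromosomes 18 (62.3%, 53.7 to 70.2) and 21 (46.4%, 37.9 to 55.1) included it. Chromosome 20 also had the most SW480-alone sites per SW620-alone site, 171 and 173, a ratio of 0.988 where the ratio over all chromosomes was 0.647. Chromosome 3 had the lowest ratio, 0.404, with 165 and 408 sites, and no chromosome had more SW480-alone than SW620-alone sites.

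**Figure D5:**
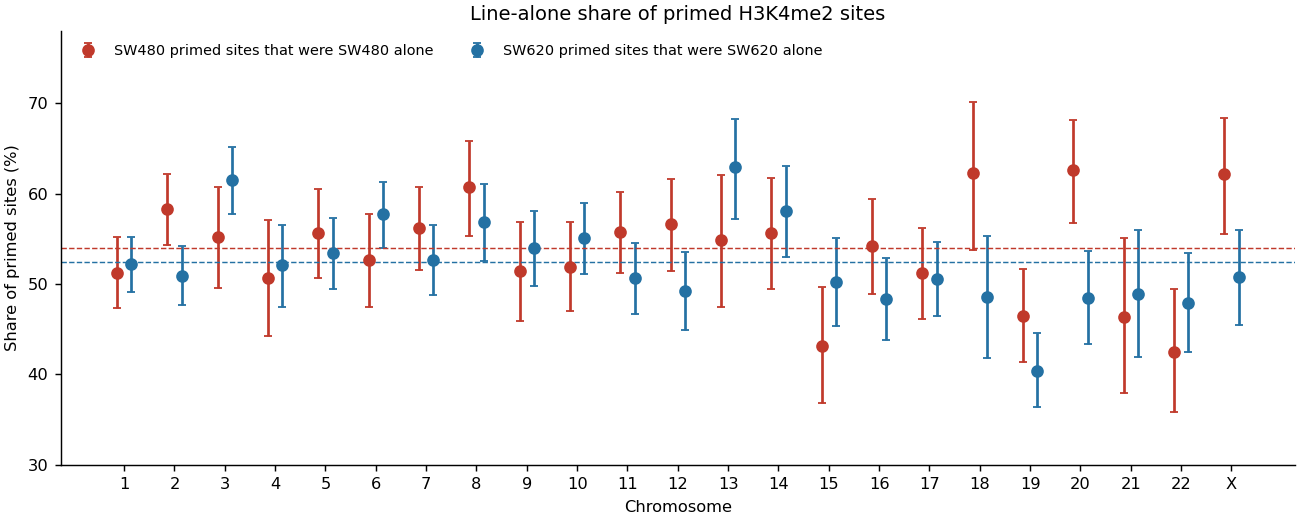
Share of primed H3K4me2 sites (%) that were found in one line alone, by chromosome, for SW480 (red) and SW620 (blue), with 95% Wilson intervals as bars and the share over all chromosomes as dashed lines. The axis starts at 30%; SW480 values lie between 42.5% on chromosome 22 and 62.6% on chromosome 20.

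The 10 widest sites were 2695 to 3193 bp. The widest, on chromosome 2 from 60770661 to 60773853, overlapped H3K36me3 in both lines and a SW620 FOXA2 peak, with H3K27ac 2.27 kb away in SW480 and 1.65 kb in SW620. On chromosome 7, the site from 132823518 to 132826688 (3171 bp) stood far from acetylated chromatin, with the nearest H3K27ac at 55.6 kb in SW480 and 55.8 kb in SW620. Another on chromosome 7, from 1456783 to 1459953, had the same width and lay 32.1 kb from SW480 H3K27ac. The site on chromosome 17 from 75870291 to 75873415 (3125 bp) held a SW620 FOXA2 peak. That on chromosome 2 from 46774348 to 46777432 (3085 bp) overlapped H3K36me3 in SW480, while the nearest SW620 H3K36me3 was 69.8 kb away.

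The other 4 of the 10 had no H3K36me3 and no FOXA2 in either line. They lay on chromosome 17 from 45796893 to 45799825, chromosome 11 from 131754204 to 131756988 and from 124734530 to 124737268, and chromosome 7 from 55172158 to 55174852. The same absence held for both chromosome 7 sites named before them and for the chromosome X site. The first of the chromosome 11 sites had H3K27ac at 0.832 kb in SW480 and at 967 kb in SW620. Its nearest SW620 H3K4me2 region was, however, 0.370 kb away, so it stood beside and not outside H3K4me2 of SW620. The site from 124734530 and the chromosome 17 site likewise had SW620 H3K4me2 at 0.301 and 0.315 kb.

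The boundary of the rule was set by an overlap of 1 bp. Just inside it, 5 sites stood 2, 3, 11, 14 and 19 bp from a region that would have removed them. The closest of these was on chromosome 7 from 23515519 to 23516519, 2 bp from SW620 H3K27ac. Just outside, the 5 SW480 H3K4me2 regions with the smallest removing overlap had 21, 26, 27, 42 and 49 bp, among them chromosome 22 from 45094511 to 45095511, with 26 bp of SW620 H3K4me2. In all, 223 sites (5.53%) lay within 1 kb of such a region, the median distance was 18.5 kb, and 625 sites (15.5%) were more than 100 kb from any. The nearest of these regions was SW620 H3K4me2 for 52.2% of the sites and SW480 H3K27ac for 27.6%. In the list, 10 SW480-alone sites overlapped another one, so the count of separate stretches is slightly lower than 4031.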

How the data were processed

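ChIP-seq region lists of 10 antibody libraries from SW480 and SW620 were used, 1 library per group, with groups taken from the titles of the 12 samples. The authors called regions per library against the input of the same line with HOMER findPeaks, per the file headers: histone marks at a region size of 1000 bp with at least 4-fold over input, FOXA2 with at least 2-fold, at a false discovery rate of 0.001. Per the submitters' processing notes, coordinates are hg19. The sources used here name neither the aligner nor the HOMER version. Every row of the deposited lists had the score 1, so no signal per region was used, and the other deposited values used were start and end positions in bp.

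Overlaps of at least 1 bp, distances and coverage were derived in Python 3.11.15 (numpy 2.4.6, pandas 2.3.3), checked against bedtools 2.31.1 and tested on simulated regions. Wilson intervals came from scipy 1.17.1 and figures from matplotlib 3.10.9. The libraries held 12791745 to 47867295 tags. Regions named in the text were the 10 widest sites, the 5 chains and 5 windows with most sites, the 5 widest with SW480 FOXA2, and 5 on either side of the threshold. The 7 sites with FOXA2 in both lines and the comparison with active SW480 sites without SW620 H3K4me2 were chosen after values were seen. The sites, the classes and the alternatives were chosen with earlier results of these data known. Those results already showed few SW620 FOXA2 peaks at SW480-only H3K4me2. Alternatives covered the overlap rule, parts of the lists, chromosomes, chain gap and peak position. Genes and sequences of the hg19 regions were not analysed here, because the reference tables are on GRCh38.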

Additional observations from a re-analysis of the deposited data

How the results depend on the processing

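Each of 8 measures of the SW480-alone sites was recomputed under other settings. The number of sites stayed within 1.5 times of 4031 under each rule on overlap or distance and without chromosome X or chromosomes 13 and 18. It was 62 among the wider 50% of the SW480 H3K4me2 list and 34 in its first 50% by order, so the description holds for narrow, late-listed sites. In those 62 and 34 sites, 0% were of the smallest width, 38.7% and 29.4% lay within 10 kb of SW480 H3K27ac, 12.9% and 2.94% overlapped SW480 H3K36me3, 8.06% and 0% overlapped SW620 H3K36me3, 3.23% and 5.88% held a SW480 FOXA2 peak, 9.68% and 8.82% a SW620 peak, and 0% were in chains. The 0% at the smallest width was fixed in advance for the 62 sites, which were chosen by width. Chains were sought only among the sites kept, so few sites could form them. Removing a site only where a region covered at least 50% of it gave 52.6% at the smallest width, 29.5% within 10 kb of SW480 H3K27ac and 4.68% with SW620 FOXA2. With no such region within 1 kb, the share near SW480 H3K27ac was 21.6%, that with SW480 H3K36me3 3.13% and that in chains 2.68%. Within 5 kb these were 10.7%, 2.04% and 2.49%, and SW620 H3K36me3 was 2.17%. Part of these moves follows from the construction, which removes sites near marked regions. Chains held 0.844% of sites at a gap of 10 kb and 8.58% at 50 kb. H3K36me3 over at least 50% of the site gave 2.51% in SW480 and 2.26% in SW620. The first 50% of each FOXA2 list gave 0.248% for SW480 and 1.79% for SW620 peaks, and a peak within 1 kb 1.34% and 4.49%. Sites of the smallest width alone had 3.28% with SW620 FOXA2, a setting added after the data were seen, as was the peak centre inside the site. The share with SW620 FOXA2 was below that of sites primed in both lines in 12 of 12 settings, by a factor of between 1.60 and 4.67. These settings include the main one and have many sites in common, so they are not separate checks. The factor of 1.60 came from the first 50% of the list, with 3 of 34 sites against 14 of 99. The wider 50% had 6 of 62 against 18 of 94, and both settings rest on few sites.

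No paired analysis was possible because each group has 1 library. With 1 library per line and antibody, differences between libraries and between lines cannot be told apart. Absent calls show only that a region did not pass the caller's threshold at that depth, and no signal values below it were analysed here.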
